A study of Mus musculus with 18 samples.

Results

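The 7 genes Gramd4, Fn3krp, Zbtb8os, Cap1, Uap1, Pex19 and Eya3 were selected among 16593 named genes because their array signals differed the same way between T1R3 knockout and wild-type mice in several brain regions. The choice therefore rests on the knockout against wild-type difference itself, and the values of that difference are given here as a description, with no p-value. The array carried 10 probes for these genes among 25697, 2 for Pex19, 3 for Eya3 and 1 for each of the others. Of the 10 probes, 9 were detected on at least 3 arrays and entered the fits, and the remaining Eya3 probe, detected on 2 of 18 arrays, did not.

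The study measured RNA on Illumina bead arrays from cortex, hippocampus and hypothalamus of male T1R3 knockout mice (T1R3KO) and of male wild-type mice (WT), all on the C57BL/6J background and 4 to 5 months old. T1R3, encoded by Tas1r3, is a taste receptor subunit that pairs with others to sense sweet and umami compounds. There were 3 arrays in each of the 6 groups, from 18 animals. The design text states that the knockout line had been bred to C57BL/6J for 4 generations or more. The sources used here give neither the part of Tas1r3 that the knockout allele lacks nor whether the wild-type mice were littermates. Because each array held RNA of a whole dissected region, fewer cells of a type and less RNA per cell cannot be told apart in any value below.

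The 7 genes have unrelated roles. Fn3krp encodes a kinase that acts on sugars bound to proteins, a step in the repair of glycated proteins. Uap1 makes UDP-N-acetylglucosamine, the sugar donor for protein glycosylation, in the last step of its pathway. Pex19 is the cytosolic chaperone that carries newly made membrane proteins to the peroxisome, the organelle that oxidises very long chain fatty acids and starts the synthesis of the ether lipids of myelin. Cap1, cyclase-associated protein 1, recycles actin monomers together with cofilin. Zbtb8os encodes archease, the activator of the ligase that joins tRNA exons after splicing. Eya3 is a transcriptional coactivator and phosphatase that works with sine oculis homeobox proteins, and Gramd4 is a GRAM-domain protein described in cell death and in the trafficking of Toll-like receptors.

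The genes lie on 4 chromosomes: Uap1 and Pex19 on chromosome 1, Fn3krp on chromosome 11, Gramd4 on chromosome 15, and Zbtb8os, Cap1 and Eya3 on chromosome 4, which also carries Tas1r3. RefSeq promoter entries on GRCm38.p6 matched 6 of the 7 genes. The 250 bases before the start site are printed for the 2 genes whose probes were brighter in knockout, Fn3krp and Cap1, and for the pair with the largest decreases, Gramd4 and Zbtb8os. Gramd4 has 3 annotated starts, of which the most upstream is shown. Each sequence reads 5′ to 3′ on the strand of its gene. Capitals mark matches on either strand to promoter motifs. The GC box was searched as GGGCGG. The motif known as the CAAT box, which many constitutive promoters hold, was searched as CCAAT. The letters TATAAA stood for the TATA box, which lies just before the start of some genes. The E-box, read by helix-loop-helix factors, was CACGTG. The letters CGGAAG stood for the core that ETS factors read.
Fn3krp, chr11:121421123-121421372, plus strand: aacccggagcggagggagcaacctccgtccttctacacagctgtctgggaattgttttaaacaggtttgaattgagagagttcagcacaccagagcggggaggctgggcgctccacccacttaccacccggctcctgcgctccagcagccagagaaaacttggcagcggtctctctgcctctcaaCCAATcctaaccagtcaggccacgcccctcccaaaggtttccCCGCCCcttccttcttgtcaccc
Cap1, chr4:122886077-122886326, minus strand: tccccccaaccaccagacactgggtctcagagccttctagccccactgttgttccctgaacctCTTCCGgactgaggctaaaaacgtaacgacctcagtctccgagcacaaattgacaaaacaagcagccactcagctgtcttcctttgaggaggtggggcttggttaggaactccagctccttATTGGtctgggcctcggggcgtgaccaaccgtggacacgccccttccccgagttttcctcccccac
Gramd4, chr15:86057445-86057694, plus strand: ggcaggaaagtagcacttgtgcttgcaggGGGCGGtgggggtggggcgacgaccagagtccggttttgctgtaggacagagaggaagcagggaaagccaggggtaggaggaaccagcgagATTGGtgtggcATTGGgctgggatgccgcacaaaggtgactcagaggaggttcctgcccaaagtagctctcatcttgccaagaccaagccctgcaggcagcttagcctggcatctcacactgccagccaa
Zbtb8os, chr4:129335718-129335967, plus strand: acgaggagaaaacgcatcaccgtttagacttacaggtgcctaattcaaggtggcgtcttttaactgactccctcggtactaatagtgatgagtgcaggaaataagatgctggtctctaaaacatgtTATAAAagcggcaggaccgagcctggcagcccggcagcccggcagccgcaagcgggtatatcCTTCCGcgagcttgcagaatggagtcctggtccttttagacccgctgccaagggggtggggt
The Fn3krp window held 1 GC box and 1 CCAAT box, and the Cap1 window 1 CCAAT box and 1 ETS motif. The Gramd4 window held 1 GC box and 2 CCAAT boxes, and the Zbtb8os window 1 TATAAA match and 1 ETS motif. The TATAAA of Zbtb8os stood near the middle of its window, not just before the start. None of the motifs searched stood in all 4 windows. Among 32851 mouse promoter windows of the same length, 32.7% held the GC box, 33.8% the CCAAT box, 12.4% the TATA box, 6.02% the E-box and 13.6% the ETS motif. The other matched genes also differed: the Uap1 window had 5 GC boxes and 22 CpG dinucleotides, and the Eya3 window 3 GC boxes and 18 CpG dinucleotides. By comparison the printed Gramd4 window had 6 CpG dinucleotides, while the windows of its other starts had 34 and 38. These matches describe the letters only.

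The arrays had mean signals of 788 to 1388 intensity units and detected 52.1% to 58.1% of their probes. The Tas1r3 probe was detected on 1 of 18 arrays, with signals of 112.3 to 163.9 in knockout and 112.3 to 151.9 in wild type, and so does not check the genotype labels. In wild type the tested markers of each region were checked, and 5 of 5 cortical, 5 of 5 hippocampal and 4 of 4 hypothalamic markers had their maximum in the labelled tissue. The summed levels of 11 marker lists, on the log2 scale, were set against genotype in each region, and 8 of 33 such comparisons had no overlap. Of all single probes tested, 16.9% had no overlap in cortex, 15.5% in hippocampus and 19.1% in hypothalamus. The 4 myelin markers tested summed to 15.79 to 15.98 in knockout and 16.02 to 16.11 in wild-type cortex, and to 15.86 to 15.92 in knockout and 16.15 to 16.17 in wild-type hypothalamus. The 2 red cell markers tested lay at 12.5 to 13.1 in knockout and 13.2 to 13.5 in wild-type cortex. In cortex the 2 neuronal markers tested summed to 15.02 to 15.23 in knockout and 15.27 to 15.40 in wild type. In hypothalamus the 4 astrocyte markers lay at 14.720 to 14.769 in knockout and 14.773 to 14.862 in wild type. There the sum of the 4 choroid plexus markers was higher in knockout, at 11.224 to 11.376 against 10.960 to 11.218 in wild type. Of these markers Clic6, the brightest, had a difference of 0.41, while Ttr had -0.77, Folr1 -0.32 and Kl -0.14, and none was called. In hippocampus the 2 endothelial markers tested lay at 11.09 to 11.24 in knockout and 11.28 to 11.44 in wild type. The sum of the 4 hypothalamic markers there was higher in knockout, at 12.87 to 13.02 against 12.71 to 12.79 in wild type. Of these markers Hap1, the brightest, had a difference of 0.20, while Pmch had 0.04, Hcrt -0.01 and Pomc -0.004, and none was called. For the average over regions 5 of 40 markers tested were called, all lower in knockout, where 6.24% of all genes tested were called. These were the myelin genes Mog at -0.53, Cldn11 at -0.42 and Mag at -0.28 (limma, adjusted p of 0.00199, 0.00283 and 0.00894) and the red cell genes Alas2 at -0.71 and Hba-a1 at -0.51 (limma, adjusted p of 0.00599 and 0.0478). The 4 striatal markers tested spanned 12.0 to 14.0 in knockout and 12.3 to 13.1 in wild-type cortex, with knockout array 1 the highest. The part of these cell types in the results below was not tested.

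Levels below are log2 normalised signals, differences are knockout minus wild type ± SE from 1 limma fit over all arrays, and a change was called where the p-value adjusted over all 15476 probes tested was below 0.05. Taking the brightest probe of each gene, 6 of 7 genes were called in every region, Fn3krp and Cap1 as higher and Gramd4, Zbtb8os, Uap1 and Pex19 as lower in knockout. The exception was Eya3, whose dimmer tested probe was called and whose brightest was not. With 1 probe per gene, 2.59% of all genes tested were called in cortex (1.21% higher, 1.38% lower), 1.33% in hippocampus (0.77% higher, 0.561% lower), 1.74% in hypothalamus (0.713% higher, 1.03% lower) and 6.24% for the average over regions (3.11% higher, 3.13% lower). Counted by probe, 8 of 9 member probes were called in each region, where the shares over all probes were 2.69% in cortex, 1.25% in hippocampus, 1.6% in hypothalamus and 6.02% for the average. The same 8 were called in all 3 regions in 1 direction, as were 0.653% of all probes. Since the genes were picked on this contrast, their count says nothing further when set against these shares. The 3 region contrasts use separate arrays.

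**Figure D1:**
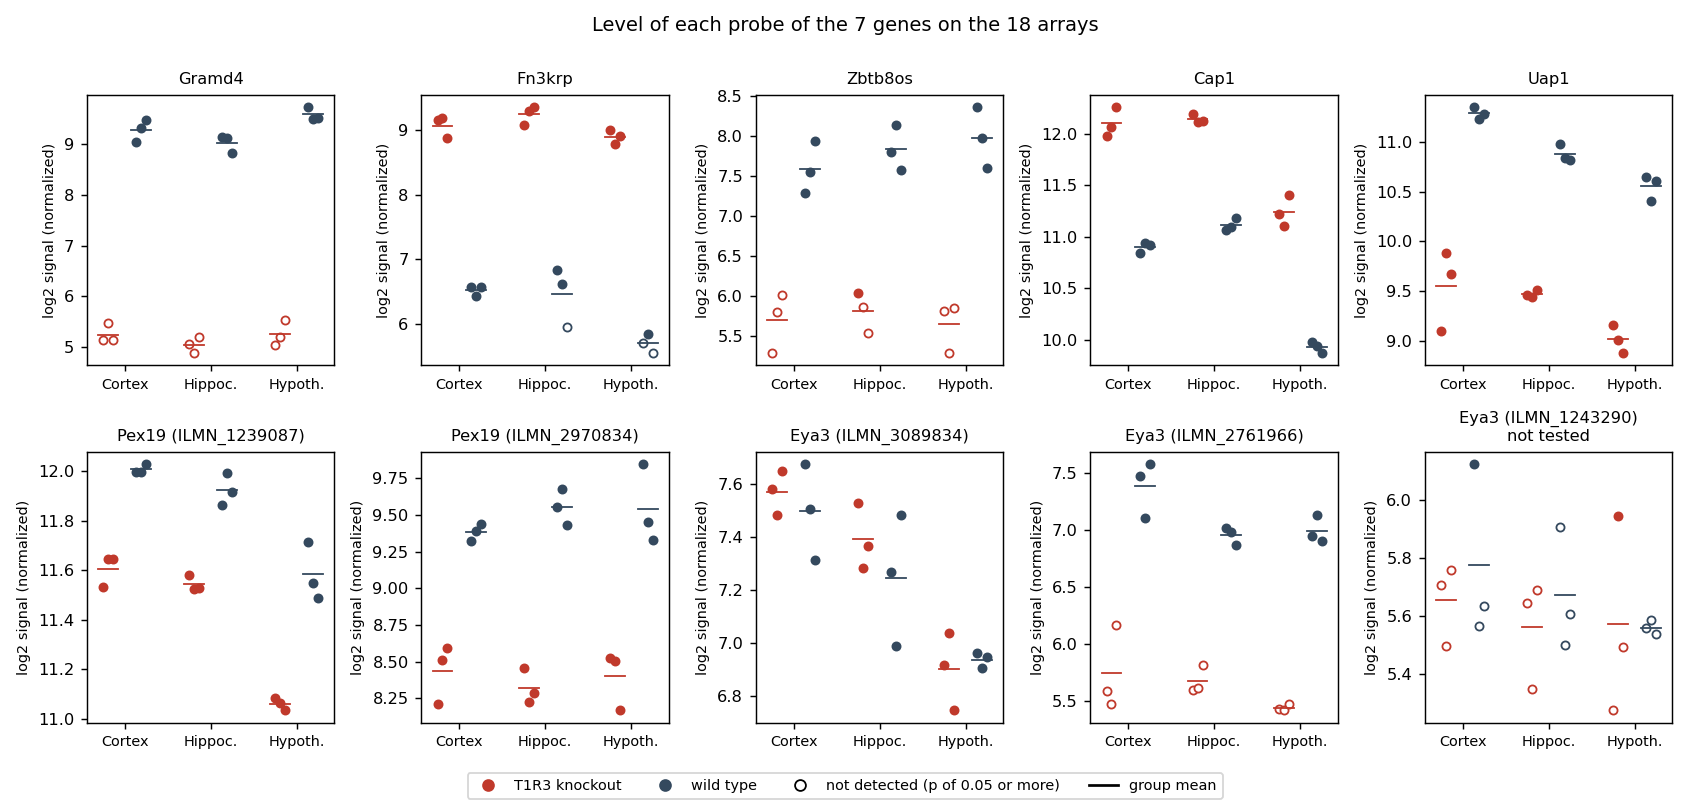
Log2 normalised signal (vertical axis) of each of the 10 probes on every array, with knockout arrays left of wild-type arrays in each region; points are single arrays, open where the probe was not detected, and lines are group means (n = 3). Gramd4 lies at 4.89 to 5.53 on the 9 knockout arrays and 8.82 to 9.72 on the 9 wild-type arrays, while the brightest Eya3 probe overlaps in all regions.

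Fn3krp, the fructosamine-3-kinase-related enzyme, was brighter in knockout in every region. Its levels were 9.15, 9.18 and 8.87 in knockout cortex, against 6.57, 6.44 and 6.57 in wild-type cortex. They reached 9.08, 9.29 and 9.36 in knockout hippocampus, against 6.83, 6.62 and 5.95 in wild-type hippocampus. The hypothalamic arrays gave 9.01, 8.78 and 8.90 in knockout hypothalamus, against 5.71, 5.85 and 5.56 in wild-type hypothalamus. No knockout array overlapped a wild-type array, and the probe was detected on 9 of 9 knockout arrays and 6 of 9 wild-type arrays, of which 3 were cortex, 2 hippocampus and 1 hypothalamus. The Fn3krp difference was 2.54 ± 0.17 in cortex, 2.77 ± 0.17 in hippocampus and 3.19 ± 0.17 in hypothalamus. Averaged over regions it was 2.84 ± 0.10. Without background correction the regional differences lay between 1.74 and 1.96. Among the wild-type arrays, the hippocampal value of 5.95 lay below the other two, and the SD there was 0.46.

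Uap1, the UDP-N-acetylglucosamine pyrophosphorylase, was dimmer in knockout in every region. Uap1 levels were 9.09, 9.88 and 9.67 in knockout cortex, against 11.35, 11.23 and 11.28 in wild-type cortex. They were 9.46, 9.44 and 9.51 in knockout hippocampus, against 10.98, 10.84 and 10.82 in wild-type hippocampus. Hypothalamic levels were 9.16, 9.01 and 8.88 in knockout, against 10.65, 10.40 and 10.61 in wild type. The groups did not overlap in any region, and the lowest of the cortical values, 9.09, came from the knockout array with the highest striatal markers. Differences were -1.74 ± 0.15 in cortex, -1.41 ± 0.15 in hippocampus and -1.54 ± 0.15 in hypothalamus, and the average of -1.56 ± 0.09 corresponds to a 2.95-fold lower signal. Without knockout cortex array 1 the cortical difference was -1.51. All 18 arrays detected the probe.

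Pex19, the carrier of peroxisomal membrane proteins, was read by 2 probes whose differences had the same direction and unequal size. The brighter probe, ILMN_1239087, stood at 11.53, 11.65 and 11.64 in knockout cortex, against 12.00, 12.00 and 12.03 in wild-type cortex. It stood at 11.58, 11.52 and 11.53 in knockout hippocampus, against 11.87, 11.99 and 11.92 in wild-type hippocampus. It gave 11.09, 11.06 and 11.03 in knockout hypothalamus, against 11.72, 11.55 and 11.49 in wild-type hypothalamus. Within each region its knockout arrays lay below its wild-type arrays. The differences were -0.40 ± 0.07 (cortex), -0.38 ± 0.07 (hippocampus) and -0.52 ± 0.07 (hypothalamus). The dimmer probe, ILMN_2970834, stood at 8.21, 8.51 and 8.59 in knockout cortex, against 9.32, 9.39 and 9.44 in wild-type cortex. Its levels were 8.46, 8.22 and 8.29 in knockout hippocampus, against 9.55, 9.68 and 9.43 in wild-type hippocampus. Its hypothalamic levels were 8.53, 8.50 and 8.17 in knockout hypothalamus, against 9.85, 9.45 and 9.33 in wild-type hypothalamus. Here the knockout arrays lay below all wild-type arrays, whatever the region. The differences of the dimmer probe were -0.94 ± 0.14, -1.23 ± 0.14 and -1.14 ± 0.14 in cortex, hippocampus and hypothalamus. Averaged over regions, the brighter probe was 1.35-fold and the dimmer probe 2.15-fold lower in knockout, and both were detected on 18 of 18 arrays.

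Cap1, the actin monomer recycling factor, was brighter in knockout. Its cortical levels were 11.98, 12.06 and 12.26 in knockout cortex, against 10.85, 10.94 and 10.92 in wild-type cortex. Hippocampal levels were 12.19, 12.12 and 12.13 in knockout hippocampus, against 11.06, 11.09 and 11.18 in wild-type hippocampus. Hypothalamic Cap1 levels were 11.22, 11.10 and 11.41 in knockout hypothalamus, against 9.98, 9.94 and 9.87 in wild-type hypothalamus. The genotypes did not overlap within any region, although the knockout hypothalamus lay near wild-type hippocampus in level. The differences of 1.20 ± 0.09 in cortex, 1.03 ± 0.09 in hippocampus and 1.31 ± 0.09 in hypothalamus averaged 1.18 ± 0.05, a 2.27-fold higher signal. Cap1 signals before normalisation were 2499.3 to 4973.1 in knockout and 1089.1 to 2327.6 in wild type.

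Zbtb8os, the archease gene, was near the detection limit in knockout. Its values were 5.29, 5.80 and 6.01 in knockout cortex, against 7.29, 7.56 and 7.93 in wild-type cortex. Zbtb8os values were 6.04, 5.87 and 5.55 in knockout hippocampus, against 7.81, 8.14 and 7.58 in wild-type hippocampus. Hypothalamic Zbtb8os values were 5.81, 5.29 and 5.85 in knockout hypothalamus, against 8.37, 7.97 and 7.60 in wild-type hypothalamus. The knockout arrays lay below every wild-type array, and the probe was detected on 1 of 9 knockout arrays, a hippocampal one, and on 9 of 9 wild-type arrays. The fitted differences were -1.89 ± 0.24 in cortex, -2.02 ± 0.24 in hippocampus and -2.33 ± 0.24 in hypothalamus. Where no array of a group detected a probe, the ratio is a bound: each such array enters with the dimmest detected probe's level, or with the probe's own level where that is higher. On that basis Zbtb8os was at least 2.7-fold lower in knockout cortex and at least 4.32-fold lower in knockout hypothalamus. Such bounds hold on the background-corrected scale with the offset of 16 added before the logarithm. With an offset of 50 the Zbtb8os differences were -1.76 to -1.40 over regions, and without background correction -1.29 to -1.0. Those without background correction were smaller than both bounds. Those with an offset of 50 were smaller than the hypothalamic bound, and the smallest of them, -1.40, was smaller than the cortical bound too.

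Eya3, the coactivator and phosphatase, gave different pictures by probe. Probe ILMN_2761966 stood at 5.59, 5.48 and 6.17 in knockout cortex, against 7.48, 7.10 and 7.58 in wild-type cortex. It was measured at 5.60, 5.62 and 5.82 in knockout hippocampus, against 7.02, 6.99 and 6.87 in wild-type hippocampus. Its values reached 5.43, 5.42 and 5.48 in knockout hypothalamus, against 6.95, 7.13 and 6.90 in wild-type hypothalamus. This probe was detected on 0 of 9 knockout arrays and 9 of 9 wild-type arrays, and was at least 2.34-fold lower in knockout cortex, at least 1.93-fold lower in knockout hippocampus and at least 2.18-fold lower in knockout hypothalamus. Its fitted differences were -1.64 ± 0.15, -1.28 ± 0.15 and -1.55 ± 0.15 in those regions. With an offset of 50 they were -1.19 to -0.89, all smaller than the cortical bound, and the smallest was below each of the bounds just given. Without background correction the differences of this probe were -0.84 to -0.61, smaller than each of those bounds. Probe ILMN_3089834, the brightest for the gene, stood at 7.58, 7.48 and 7.65 in knockout cortex, against 7.68, 7.51 and 7.31 in wild-type cortex. Its hippocampal values were 7.53, 7.28 and 7.37 in knockout hippocampus, against 7.27, 6.99 and 7.48 in wild-type hippocampus. Its hypothalamic values were 6.92, 7.04 and 6.75 in knockout hypothalamus, against 6.96, 6.91 and 6.95 in wild-type hypothalamus. It was detected on all 18 arrays with overlapping genotypes in every region. Its differences were 0.07 ± 0.12 in cortex, 0.15 ± 0.12 in hippocampus and -0.04 ± 0.12 in hypothalamus. The untested probe, ILMN_1243290, had differences of -0.12, -0.11 and 0.01. Over the 18 arrays the tested Eya3 probes had a Pearson r of 0.05, and the Pex19 probes one of 0.68.

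Gramd4, the GRAM-domain gene, had the largest difference of the 7. Its levels stood at 5.14, 5.48 and 5.13 in knockout cortex, against 9.02, 9.32 and 9.46 in wild-type cortex. They were measured at 5.06, 4.89 and 5.19 in knockout hippocampus, against 9.13, 9.11 and 8.82 in wild-type hippocampus. Hypothalamic Gramd4 levels were 5.05, 5.21 and 5.53 in knockout hypothalamus, against 9.72, 9.49 and 9.51 in wild-type hypothalamus. The probe was detected on 0 of 9 knockout arrays and 9 of 9 wild-type arrays, with signals before normalisation of 84.8 to 121.5 in knockout and 433.3 to 1031.5 in wild type. With the offset of 16, Gramd4 was at least 8.64-fold lower in knockout cortex, at least 8.02-fold lower in knockout hippocampus and at least 13.1-fold lower in knockout hypothalamus. The fitted differences were -4.02 ± 0.15, -3.97 ± 0.15 and -4.31 ± 0.15. The bounds and the differences both depend on the offset and the background correction. With an offset of 50 the Gramd4 differences were -3.46 to -3.04 over regions, all smaller than the hypothalamic bound. Without background correction they were -2.79 to -2.46, smaller than each of these bounds.

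**Figure D2:**
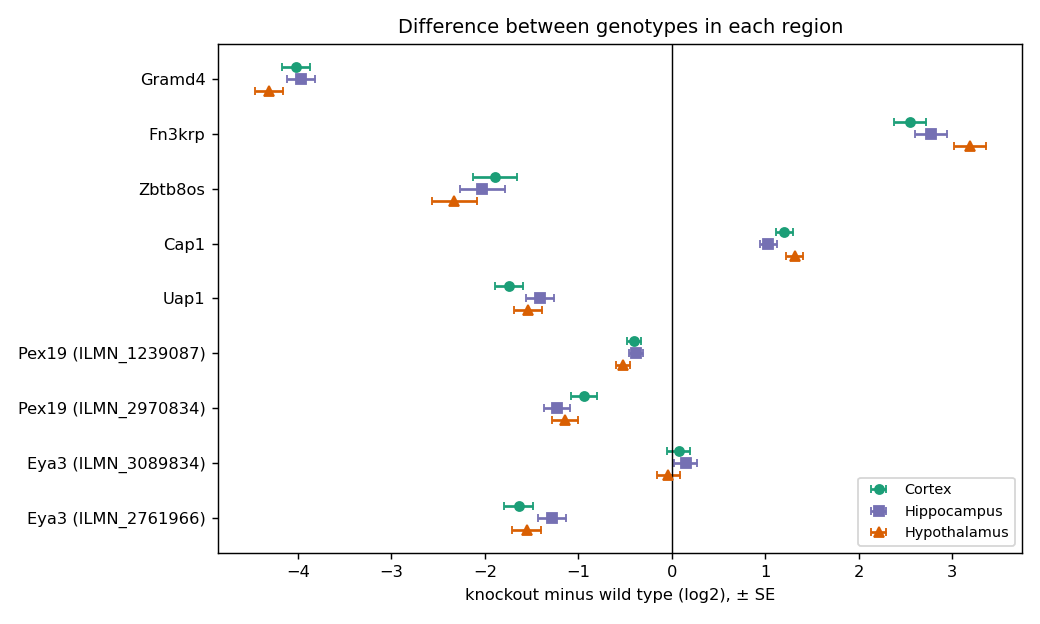
Knockout minus wild-type difference in log2 signal (± SE, 3 arrays a genotype) for the 9 probes tested, by region. Fn3krp and Cap1 lie above 0 in all regions, the brightest Eya3 probe lies near 0, and the other probes lie below 0, down to -4.31 for Gramd4 in hypothalamus.

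The lowest and highest regional difference of a probe lay 0.14 apart for the brighter Pex19 probe and 0.64 apart for Fn3krp, the widest of the 9. Within regions, 8 of 9 probes had no overlap between genotypes, where 16.9% of all probes tested had none in cortex, 15.5% in hippocampus and 19.1% in hypothalamus. Across regions, 6 of 9 probes separated the 9 knockout from the 9 wild-type arrays, which 0.821% of all probes did. The rule that chose the genes used these arrays. The SD within groups of the member probes had a median of 0.137, against 0.132 for all probes tested.

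Differences between regions of wild-type brain were not used in choosing the genes and were tested. The moderated F test over the 3 wild-type regions was called for the brightest probe of 6 of 7 genes, where 56.7% of all genes were called. Cap1 had the strongest pattern (limma, adjusted p of F 3.99e-08). Its wild-type levels were 9.93 ± 0.06 in hypothalamus, 11.11 ± 0.06 in hippocampus and 10.90 ± 0.05 in cortex (SD, n = 3 each). Hypothalamus was lower than the other two, with a hypothalamus minus hippocampus difference of -1.18 ± 0.09 (limma, adjusted p = 3.14e-08) and a hypothalamus minus cortex difference of -0.97 ± 0.09 (limma, adjusted p = 2.61e-07). Hippocampus minus cortex, at 0.21 ± 0.09, did not pass (limma, adjusted p = 0.123).

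Fn3krp, Pex19, Uap1 and Eya3 had the same order of hypothalamus below cortex in wild type. Fn3krp averaged 5.71 ± 0.15 in hypothalamus, 6.47 ± 0.46 in hippocampus and 6.52 ± 0.08 in cortex (SD, n = 3 each). The hypothalamus minus cortex difference of Fn3krp was -0.82 ± 0.17 (limma, adjusted p = 9.3e-04) and the hypothalamus minus hippocampus difference -0.76 ± 0.17 (limma, adjusted p = 0.002). Of these wild-type levels 6 of 9 were detected, and 1 of 3 in hypothalamus. In knockout, where 9 of 9 arrays detected the probe, hypothalamus minus cortex was -0.17, a difference that was not tested. The brighter Pex19 probe averaged 11.59 ± 0.12 in hypothalamus, 11.92 ± 0.06 in hippocampus and 12.01 ± 0.02 in cortex (SD, n = 3 each), with a hypothalamus minus cortex difference of -0.42 ± 0.07 (limma, adjusted p = 2.14e-04) and a hypothalamus minus hippocampus difference of -0.34 ± 0.07 (limma, adjusted p = 0.00173). The dimmer Pex19 probe did not pass (F, limma, adjusted p = 0.472), at 9.54, 9.55 and 9.38 in hypothalamus, hippocampus and cortex, and the difference between the probes was not tested. Uap1 averaged 10.55 ± 0.13 in hypothalamus, 10.88 ± 0.09 in hippocampus and 11.29 ± 0.06 in cortex (SD, n = 3 each). Its hypothalamus minus cortex difference was -0.73 ± 0.15 (limma, adjusted p = 6.86e-04). Hippocampus minus cortex had an adjusted p of 0.0688 and hypothalamus minus hippocampus one of 0.0893 (limma). These passed in 5 and 3 of 24 other settings, among them the fit without knockout cortex array 1 (limma, adjusted p of 0.00695 and 0.0116). For the brightest Eya3 probe, hypothalamus minus cortex was -0.56 ± 0.12 (limma, adjusted p = 0.00143), and for the other tested Eya3 probe it was -0.39 ± 0.15 (limma, adjusted p = 0.0449), a call that held in 10 of 24 other settings.

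Gramd4 had another order in wild type, at 9.57 ± 0.13 in hypothalamus, 9.02 ± 0.17 in hippocampus and 9.27 ± 0.22 in cortex (SD, n = 3 each). Hypothalamus exceeded hippocampus by 0.56 ± 0.15 (limma, adjusted p = 0.00656), and neither difference from cortex passed (limma, adjusted p of 0.1 and 0.268). Its F test (limma, adjusted p = 0.0147) lost the call without wild-type hippocampus array 3 (0.0563) or without wild-type hypothalamus array 1 (0.0646). Zbtb8os was the gene that did not pass (F, limma, adjusted p = 0.357), at 7.98 ± 0.38 in hypothalamus, 7.84 ± 0.28 in hippocampus and 7.59 ± 0.32 in cortex (SD, n = 3 each).

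**Figure D3:**
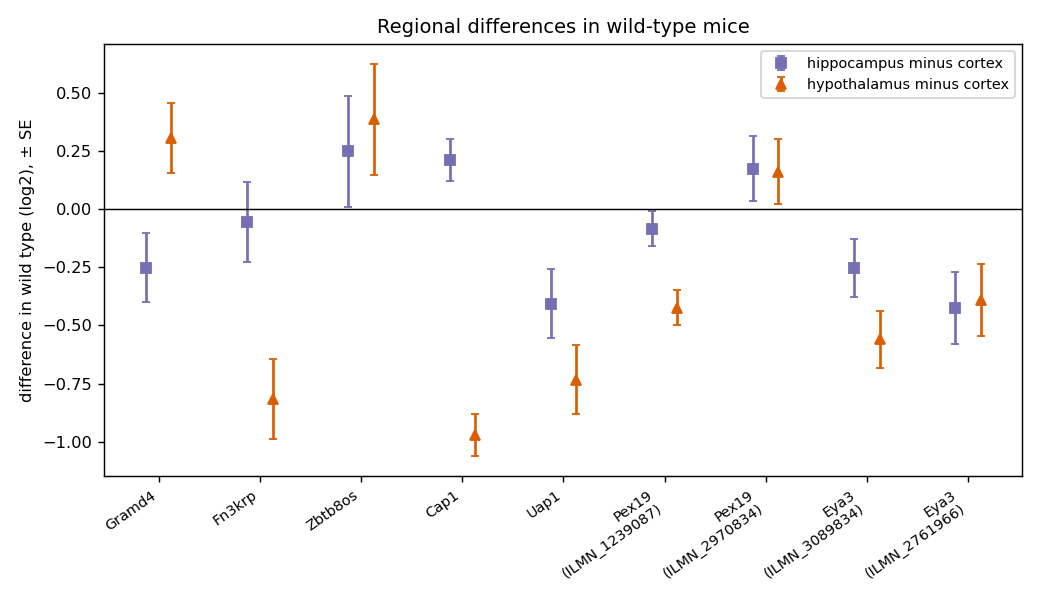
Regional differences in log2 normalised signal within wild type (vertical axis, ± SE, 3 arrays a region) for the 9 probes tested, as hippocampus minus cortex (squares) and hypothalamus minus cortex (triangles). Hypothalamus minus cortex is lowest for Cap1 at -0.97 and above 0 for Gramd4 at 0.31, for Zbtb8os and for the dimmer Pex19 probe.

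The genes known to work with the 7 were followed in lists that leave the 7 out, and few of them differed by genotype. Of 92 listed genes 61 could be tested, and 3 were called for the average over regions, which is 4.92% against 6.24% of all genes tested by 1 probe each. The median difference was -0.004 over the partners and 0.0133 over all genes. All 3 called partners were peroxisomal. Abcd3, a transporter of the peroxisomal membrane, fell by 0.43 ± 0.05 on the log2 scale in the average (limma, adjusted p = 8e-05), with -0.41 in cortex, -0.42 in hippocampus and -0.48 in hypothalamus. It was called in each, but leaving out any of 5 single arrays ended the call in cortex (limma, adjusted p of 0.0744 to 0.122), any of 11 in hippocampus (0.0512 to 0.148) and either of 2 in hypothalamus (0.0689 and 0.0693). The averaged call of Abcd3 held in 23 of 23 other settings. The myelin markers Mog, Cldn11 and Mag were also lower in the average, while Mbp had -0.02 (limma, adjusted p = 0.89). In cortex Mog at -0.76 and Cldn11 at -0.53 were called. In hippocampus the 4 myelin markers tested had -0.41 (Mog), -0.20 (Cldn11), -0.19 (Mag) and 0.05 (Mbp), and none was called. In hypothalamus they had -0.41, -0.52, -0.27 and -0.11 in that order, and none was called there either. The part of myelin in the Abcd3 difference was not tested. Pex6, an ATPase that recycles the import receptor, rose by 0.36 ± 0.06 (limma, adjusted p = 6.21e-04). Abcd2, another peroxisomal fatty acid transporter, averaged -0.43 ± 0.12 (limma, adjusted p = 0.048), a call that held in 6 of 23 other settings. It was -1.25 ± 0.21 in cortex, 0.02 in hippocampus and -0.07 in hypothalamus, and the test of a difference between these regional values did not pass (limma, adjusted p of F 0.266). By list, 1 of 11 tested assembly genes and 2 of 11 tested membrane clients and enzymes were called.

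Outside the peroxisome lists, 0 of 39 tested partners were called by limma for the average, and 5 of them (12.8%) had an unadjusted p under 0.05, against 19% of all genes tested. Fn3k, the paralog and direct chromosomal neighbour of Fn3krp, had a difference of -0.15 ± 0.06 (limma, adjusted p = 0.187). Among 9 genes of the tRNA ligase complex and tRNA splicing, the smallest adjusted p-values belonged to Tsen54, a splicing endonuclease subunit, at 0.26 ± 0.08 (limma, 0.0601), and to Trpt1 at 0.21 (limma, 0.0766). Rtcb, the ligase that archease activates, had a difference of -0.01. Among 16 actin cycling genes, the kinase Limk2 had 0.18 (limma, adjusted p = 0.0722) and the cofilin phosphatase Ssh3 0.15 (limma, adjusted p = 0.278). Among 10 genes of UDP-N-acetylglucosamine metabolism, the deacetylase Amdhd2 had -0.27 ± 0.08 (limma, adjusted p = 0.0566) and Dpagt1, which uses the sugar to start N-glycans, 0.11 (limma, adjusted p = 0.345). Gramd1a had 0.11 ± 0.14, Gramd1b -0.02 ± 0.07 and Eya2, the tested gene of its list of Eya relatives and their binding partners, 0.02 ± 0.14. The Eya2 probe was dim, with group means of 5.59 to 6.14.

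Genes placed beside the 7 on their chromosomes included many that were called. Taking the 5 nearest measured genes on each side in RefSeq order gave 68 neighbours, since Fn3krp has 3 measured genes on 1 side. Of these, 25 were called for the average over regions, 9 as higher and 16 as lower in knockout, which is 36.8%, against 6.24% of the 10512 genes placed. The median size of the difference was 0.177 on the log2 scale for neighbours and 0.0777 for all genes placed. In the single regions 15 neighbours (22.1%) were called in cortex, 11 (16.2%) in hippocampus and 11 (16.2%) in hypothalamus, against 2.58%, 1.33% and 1.74% of all genes placed. No test compared these shares.

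Around Zbtb8os, 4 of 10 neighbours were called and all were lower in knockout. Bsdc1 fell by 0.94 ± 0.06 and Trim62, a ubiquitin ligase, fell by 0.92 ± 0.08, each called in all regions (limma, adjusted p of the average 4.99e-08 and 9.57e-07). Zbtb8a, the next gene, fell by 0.67 ± 0.09 (limma, adjusted p = 1.56e-04), and S100pbp on the other side had 0.29 (limma, adjusted p = 0.103). The S100pbp probe was detected on only 5 knockout arrays and 2 wild-type arrays. Around Eya3, 3 of the 4 called neighbours were higher. Xkr8, a phospholipid scramblase and the next gene on 1 side, fell by 0.73 ± 0.07 (limma, adjusted p = 2.33e-06), Phactr4 rose by 0.43 ± 0.05 (limma, adjusted p = 5.1e-05) and Rpa2, a subunit of the single-strand DNA binding protein, rose by 0.26 ± 0.06 (limma, adjusted p = 0.0127). Dnajc8 on the other side of Eya3 had 0.05. Around Cap1, Ppt1, the lysosomal palmitoyl thioesterase beside it, rose by 0.34 ± 0.06 (limma, adjusted p = 0.00178) and Col9a2, a collagen chain, rose by 0.57 ± 0.06 (limma, adjusted p = 1.78e-05). Col9a2 had 1.05 in cortex, the region where it was called, 0.45 in hippocampus and 0.22 in hypothalamus, with no difference between regions passing (limma, adjusted p of F 0.229), while Mfsd2a on the other side had 0.05.

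On chromosome 1, 5 of 10 neighbours of Pex19 and 4 of 10 neighbours of Uap1 were called. Vangl2, a planar cell polarity gene, fell by 0.70 ± 0.06 and was called in each region (limma, adjusted p of the average 4.35e-07). Copa, the coatomer subunit gene next to Pex19, fell by 0.31 ± 0.04 (limma, adjusted p = 2.02e-04), and Cd84 fell by 0.46 ± 0.08 (limma, adjusted p = 0.00212). Dcaf8 on the other side of Pex19 had 0.02 ± 0.15, but its probe was detected on only 2 knockout arrays and 1 wild-type array. Next to Uap1, Hsd17b7 fell by 0.22 ± 0.05 (limma, adjusted p = 0.014) and the kinase gene Uhmk1 fell by 0.50 ± 0.09 (limma, adjusted p = 0.00317). Rgs5, a regulator of G protein signalling typical of pericytes, rose by 1.07 ± 0.09 and was called in all regions (limma, adjusted p of the average 1.66e-06), and Ccdc190 fell by 0.28 ± 0.06 (limma, adjusted p = 0.00863).

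Around Fn3krp, 3 of 8 neighbours were called and all were lower, opposite to Fn3krp itself. Cybc1, a chaperone of the phagocyte NADPH oxidase, fell by 0.81 ± 0.05 and was called in each region (limma, adjusted p of the average 6.65e-08), and Narf fell by 0.50 ± 0.08 (limma, adjusted p = 7.27e-04). The genes directly beside Fn3krp, Rab40b at 0.19 (limma, adjusted p = 0.174) and Fn3k, did not pass. Around Gramd4, 3 of 10 were called: Cerk, ceramide kinase and the next gene, rose by 0.24 ± 0.05 (limma, adjusted p = 0.00725), Wnt7b rose by 0.28 ± 0.07 (limma, adjusted p = 0.0206) and Cdpf1 fell by 0.28 ± 0.08 (limma, adjusted p = 0.0436). Celsr1, on the other side of Gramd4, had -0.20 (limma, adjusted p = 0.216). It had -0.13 in cortex, 0.20 in hippocampus and -0.69 in hypothalamus, where it was called (limma, adjusted p = 0.0281). Leaving out any of 5 single arrays ended that call, and the difference between its regions did not pass (limma, adjusted p of F 0.362). Wnt7b had 0.57 in cortex, where it was called, 0.25 in hippocampus and 0.00 in hypothalamus, and the difference between regions did not pass (limma, adjusted p of F 0.519). The Cdpf1 call held in 9 of 23 other settings.

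The genes whose levels ran most like those of the 7 over the 18 arrays are given as a description, since all arrays share the same regions and genotypes and several of these genes differ by genotype themselves. Gramd4 was most like B3galt6 (Pearson r 0.986), Fcer1g (0.983) and Zbtb8os (0.967). Fn3krp was most like Tmem87a (0.984), Rbm45 (0.978) and Fv1 (0.968). Zbtb8os was most like Gramd4, B3galt6 (0.952) and its chromosomal neighbour Bsdc1 (0.948). Cap1 was most like Nubp2 (0.953), Fcgr3 (0.950) and Fgd2 (0.928). Uap1 was most like Clstn1 (0.968), Fgfr1op2 (0.966) and Gm5801 (0.957), and the brighter Pex19 probe was most like Lrrc57 (0.977), Fgfr1op2 (0.942) and Ints11 (0.929). The brightest Eya3 probe was most like Gm5113 (0.944), Tarbp2 (0.937) and Inhba (0.923), whose own genotype differences of 0.10, 0.07 and 0.19 were small like its own 0.06.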

How the data were processed

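Bead array signals of 18 mouse brain samples, 3 in each of 6 groups named by the sample titles, were analysed. The deposited intensity is a linear bead signal per probe and array, not normalized between arrays, and each deposited detection p-value belongs to 1 intensity. The deposited score is a z score of the log signal within an array, recomputed to within 5.0e-10. Signals came from GenomeStudio 2011.1, per the submitters' processing notes. The sources used here do not give its background setting, nor slides or scan dates, so batches were not compared.

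Probes were named from the platform annotation (23978 with 1 symbol, 0 with several, 1719 with none), and symbols updated through RefSeq GRCm38.p6, which held 14547 of 14554 named tested probes. Signals were background-corrected, quantile-normalized and log2 transformed with neqc in limma 3.58.1 (R 4.3.3), offset 16. The 15476 probes (10517 genes) with a detection p-value below 0.05 on 3 or more arrays entered 1 limma fit of 6 group means with 12 residual degrees of freedom. Benjamini-Hochberg adjustment ran over all these probes, with a threshold of 0.05. The p-values set each difference against the spread between the 3 animals of each group, pooled over the 6 groups and moderated by limma. The fit was tested on simulated data. Figures used matplotlib 3.10.9 in Python 3.11.15.

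The 7 genes, the lists and the tests were chosen with earlier results of these data known. Named besides the 7 genes were, per list, up to 4 called genes or the 2 of smallest p, the nearest measured neighbour on each side and up to 2 further called neighbours, and the 3 genes of highest correlation with each brightest probe; Rtcb was named outside this rule, after its value was seen.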

Additional observations from a re-analysis of the deposited data

How the results depend on the processing

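The counts were recomputed with no background correction, the deposited z scores, no detection filter, an offset of 50, the arrays of 1 contrast alone, the replicate block, and each array left out in turn. By the brightest probe, 6 of 7 genes were called in hypothalamus and for the average over regions in every such setting that was run for them, 5 to 6 in cortex and 5 to 6 in hippocampus. The count of 5 came from the brighter Pex19 probe, which missed the threshold in cortex and hippocampus with only the arrays of that region, and in hippocampus without knockout array 2, knockout array 3 or wild-type array 2. Wild-type regions differed for 5 to 6 genes, partners called ranged from 2 to 4 and neighbours from 22 to 28. With the replicate block, 6 genes were called in each region and on average, 6 differed between wild-type regions, and 2 partners and 25 neighbours were called; over all probes the block gave 509 calls against 417 in cortex, 234 against 194 in hippocampus, 302 against 247 in hypothalamus and 1034 against 932 on average. The replicate numbers are not known to pair samples: deviations of same-numbered knockout and wild-type arrays had r of -0.278 to 0.216 over 9 pairs. Of 162 member differences with 1 array left out, 4 moved by 1 SD or more, and of 162 under the other settings 39 did, with no change of sign among the called ones; without background correction Gramd4 ranged from -2.79 to -2.46 over regions, and with an offset of 50 Fn3krp ranged from 2.18 to 2.56. The calls of Abcd2 and Cdpf1 held in 6 and 9 of 23 settings. Probes near background, such as Gramd4, Zbtb8os and ILMN_2761966 of Eya3 in knockout, have only a bound on their level there, and Fn3krp was undetected on 3 of 9 wild-type arrays.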
